A study of Mus with 2 samples.

Results

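The 10 genes described here are the endoplasmic reticulum (ER) chaperones and folding enzymes Hspa5, Hsp90b1, Calr, Canx, Pdia3, Pdia4 and Pdia6, together with Xbp1, Dnajb9 and Herpud1 of the unfolded protein response. They were chosen by name, as a set to be put beside the targets of ATF4, and all 10 were found among the 20056 mouse genes to which a probe of the array could be matched through its RefSeq transcript. They were read by 12 probes, each printed once. The samples were bone marrow derived macrophages (BMDMs) of male C57BL6/J mice, grown for 7 d with 10 ng/mL of recombinant M-CSF and then kept for 24 hr under M2 conditions, that is with 10 ng/mL of IL-4. During these 24 hr one culture received 10 µM of GW4064, a synthetic agonist of the farnesoid X receptor (FXR), and the other received DMSO, the solvent of the agonist. M-CSF and IL-4 were therefore common to both, and how many mice gave the marrow of each culture is not given in the sources used here. Each condition was measured on 1 array, so that nothing here measures the spread between cultures, no p-value is given, and every difference is described by its size.

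Proteins that are secreted or carried to the cell surface are folded in the ER. Hspa5 (BiP) holds unfolded chains, calnexin and calreticulin bind chains that carry sugars, and the protein disulfide isomerases form and shuffle disulfide bonds. When unfolded protein accumulates, the sensors IRE1, ATF6 and PERK are released: IRE1 splices the mRNA of Xbp1 into the form that encodes an active transcription factor, ATF6 is cleaved into a factor that raises chaperone genes, and PERK slows translation and favours that of ATF4, whose targets serve amino acid supply and the stress response. Macrophages are secretory cells and express this machinery without added stress. The array reads the total amount of a transcript, and the spliced and unspliced forms of Xbp1 were not told apart.

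Signals below are the intensities of the spots after background subtraction, as deposited, and differences are log2 of GW4064 over DMSO after each array had been scaled to its 75th percentile, a signal of 1209 with DMSO and 1265 with GW4064. A difference thus states a change relative to the bulk of the RNA on the array. A gene with several probes has the mean of their differences. Of the genes matched, 13529 had a probe well above background on at least 1 array, and their median difference was 0.0068. The reading error was gauged in 3 ways. Probes printed several times and bright at every spot had a median SD of 0.077 between copies over 234 probes, the error that the scanner software assigns to a signal amounts to 0.20 to 0.21 for a difference of a member probe, and 2 probes of the same gene differed by a median of 0.10 over 2709 genes. All of these cover the reading of spots and not the cultures, the RNA or the labelling.

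All 10 genes had a higher scaled signal with GW4064 than with DMSO, each by a small amount. The log2 differences lay between 0.099 for Canx and 0.42 for Pdia4, which is 1.07-fold to 1.34-fold, with a median of 0.20. Of the 10 genes 0 reached 2-fold upward and 0 reached it downward, beside 2.04% of all genes measured that were higher by that much and 2.71% that were lower. At a threshold of 1.5-fold the number was again 0 in each direction, against 4.39% of all genes higher and 5.56% lower. A difference above 0 was seen in 51.6% of all genes and in 10 of the 10. On this scale each of the 10 differences was larger than 0.077, the SD between copies of a probe. With centring on spike-in control RNA, given further on, only Hsp90b1 (0.090), Calr (0.14), Pdia4 (0.23) and Pdia6 (0.18) were higher by more than that. Canx also fell short of it with quantile normalization (0.039), loess (0.058) and normexp (0.032), and Xbp1 with quantile normalization (0.059). Of the 12 probes, 6 differed by more than the error that the software assigns to them, namely those of Hsp90b1, Calr and Pdia4, both of Pdia6 and the brighter one of Dnajb9. The difference exceeded 2 such errors for the probe of Pdia4 and for the dimmer probe of Pdia6. Both arrays read all 12 probes well above background and 0 were saturated, so no difference is a bound.

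**Figure D1:**
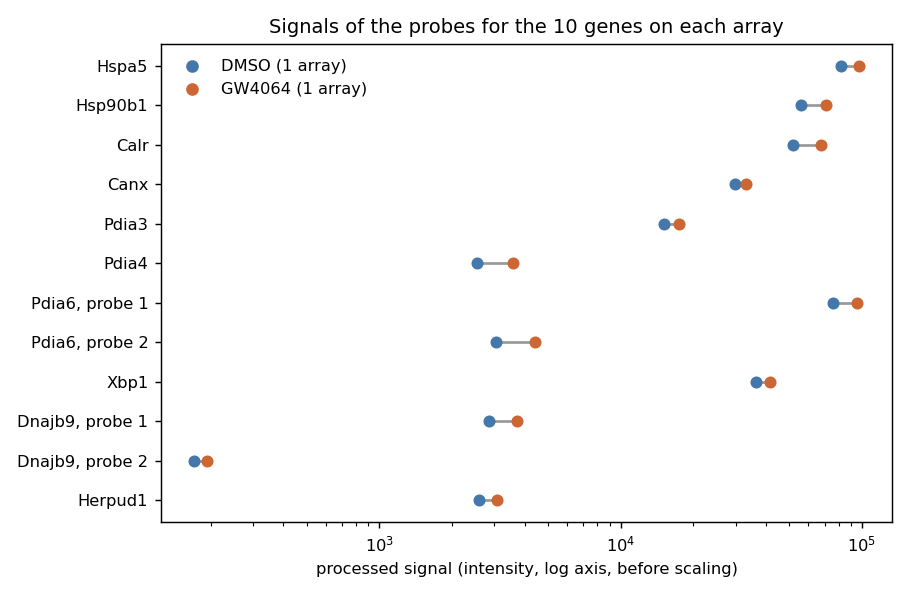
Processed signal of each of the 12 probes for the 10 genes with DMSO and with GW4064 (1 array each, log axis, before scaling between arrays, probes of a gene numbered by signal). The GW4064 point lies to the right of the DMSO point in each pair, and the widest steps are those of Pdia6 probe 2, from 3046 to 4406, and Pdia4, from 2543 to 3566.

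Hspa5 encodes BiP, the ER member of the Hsp70 family and the classic reporter of ER stress. Its signal was 82015 with DMSO and 97367 with GW4064, a log2 difference of 0.18 or 1.13-fold. This was smaller than the software error of 0.20 and placed Hspa5 at percentile 81.2 of all genes. Hsp90b1 encodes GRP94, the ER member of the Hsp90 family, which folds integrins and Toll-like receptors. Its signal was 55655 with DMSO and 70630 with GW4064, and its log2 difference of 0.28 stood at percentile 88.4. Both genes were higher with GW4064, Hsp90b1 by more than its software error and Hspa5 by less, and the difference between them was itself within the error of the software.

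Calreticulin (Calr) and calnexin (Canx) are the lectin chaperones that hold glycoproteins during folding, Calr as a soluble protein of the ER lumen and Canx as a membrane protein. The signal of Calr was 51637 with DMSO and 67934 with GW4064, which is 1.26-fold or 0.33 on the log2 scale after scaling. Canx had a signal of 29634 with DMSO and of 33224 with GW4064, a difference of 0.099 and the smallest of the 10. Calr stood at percentile 90.5 of all genes and Canx at percentile 70.0. The 2 lectins differed from each other by 0.23, which is within the error of 0.29 for the pair.

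The protein disulfide isomerases held both the largest difference and one of the smaller ones. Pdia3 (ERp57) works on glycoproteins bound to the lectin chaperones and is part of the loading complex of MHC class I. Its signal was 15163 with DMSO and 17407 with GW4064, a log2 difference of 0.13. Pdia4 (ERp72) had a signal of 2543 with DMSO and 3566 with GW4064, and its log2 difference of 0.42 was the 948th highest of 13529 genes, at percentile 93.0. Pdia6 (P5), which acts together with BiP, was read by 2 probes for the same transcript. One had signals of 75925 and 95102 with DMSO and GW4064, a difference of 0.26, and the other had 3046 and 4406, a difference of 0.47. Both probes for Pdia6 were higher with GW4064, and the gap of 0.21 between them stood at percentile 78.3 of such gaps over genes with 2 probes. Their mean was 0.36. The brighter probe lay where 2 other spots within 300 µm changed 8-fold or more from one array to the next, and the other probe had 0 such spots around it. Areas with 2 or more such spots are called damaged below. Spots near background were counted too, and damage to the slide itself was not shown.

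Xbp1 encodes the transcription factor of the IRE1 branch. Its signal was 36504 with DMSO and 41630 with GW4064, a log2 difference of 0.12, below the software error and at percentile 74.1 of all genes. Dnajb9 (ERdj4) encodes a cochaperone of BiP and is a well known target of spliced Xbp1. It was read by 2 probes. One went from a signal of 2859 with DMSO to 3710 with GW4064, a difference of 0.31, and the dimmer went from 171 to 194, a difference of 0.11. Both pointed the same way, with a mean of 0.21. Herpud1, an ER membrane protein that takes part in the degradation of misfolded proteins and is strongly induced by ER stress, had signals of 2580 and 3072 and a difference of 0.19. The only spot for Herpud1 had 4 other spots within 300 µm that differed 8-fold or more. Its value was not measured once such areas were left out, and it was 0.12 after the median difference of 0.065 of the spots within 1000 µm had been subtracted.

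Most differences among the 10 genes were within the largest of the 3 reading errors, that of the software. Of 45 pairs of genes, 4 differed by more than the software error of the pair, with the errors of separate probes taken as independent, and 0 by more than 2 such errors. The widest pair was Canx and Pdia4, 0.32 apart with an error of 0.29, and these genes were farther apart than the SD of 0.077 between copies or the median gap of 0.10 between probes of a gene. Neighbours in the order of the 10 genes were not separated by the software error. Since most of the probes were bright, the genes were also set against others of like signal. When all genes were divided into 10 equal groups by mean signal, 7 of the 10 genes fell in the brightest group, whose median difference was 0.027, with 57.8% of its genes above 0. Within that group Canx stood at percentile 70.5, Xbp1 at 76.2, Pdia3 at 78.3, Hspa5 at 85.3, Hsp90b1 at 93.5, Calr at 95.2 and Pdia6 at 96.0. Pdia4 stood at percentile 97.2 and Herpud1 at 86.2 of the 8th group, and Dnajb9 at 88.6 of the 6th. Each of the 10 genes was thus above the median of probes as bright as its own.

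**Figure D2:**
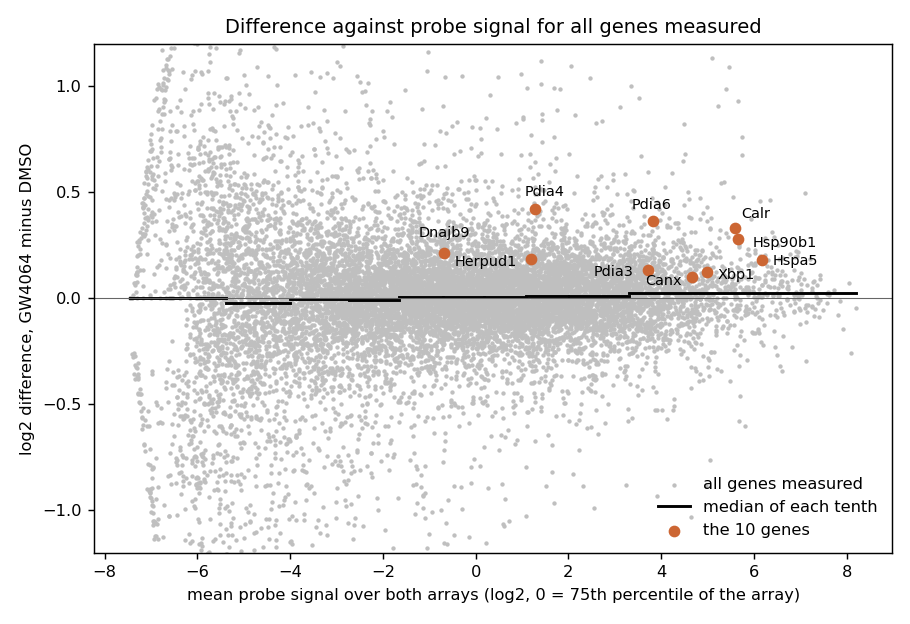
Log2 difference, GW4064 minus DMSO, against the mean scaled probe signal (log2) for all 13529 genes measured (grey), with the 10 genes in orange and the median of each of 10 equal groups by signal as black lines (470 genes beyond ±1.2 are not drawn). The 10 genes sit above the black lines, by little for Canx and Xbp1 and by the most for Pdia4.

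The sign of the small differences depended on how the arrays were put on one scale. Under 11 of the 12 other settings each of the members measured stayed above 0, and the median of the 10 genes lay between 0.18 and 0.22. Some of these settings could not have given another sign. Keeping marked spots and the other filters on dim probes returned the main values. The deposited table and median centring shifted the 10 genes by constants of only 0.0022 and 0.012. The setting under which some members fell below 0 centred the arrays on the spike-in control RNA, whose 8 probes above background differed by 0.034 to 0.24 between them. This moved the median of all genes to -0.18 and that of the 10 genes to 0.011. Of the 10 genes 5 were above 0 (Hsp90b1, Calr, Pdia4, Pdia6 and Dnajb9) and 5 below, of which Canx was the lowest at -0.088. Of all genes 18.2% were above 0 on that scale. Relative to the median of all genes the 10 genes were 0.19 higher on both scales. Spike-in centring shifts all genes by a common constant and so could not change that gap, which is therefore no check of it. Smaller moves were seen on other scales. Canx was at 0.039 with quantile normalization, 0.058 with loess and 0.032 with normexp, Xbp1 was at 0.059 with quantile normalization and 0.079 with loess, Hspa5 was at 0.12 with quantile normalization, and Dnajb9 was at 0.090 with normexp. Among spots within 1000 µm of the 12 member spots, the median difference ranged from -0.054 to 0.087, and subtracting it left 10 of 10 genes above 0 with a median of 0.19, Herpud1 and Pdia4 being lowered and Pdia3 raised to 0.19.

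**Figure D3:**
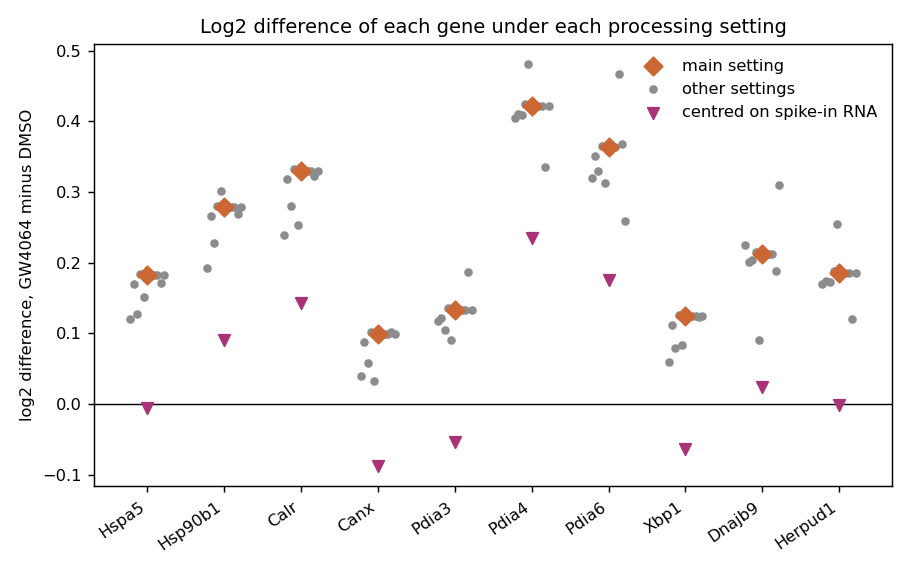
Log2 difference, GW4064 minus DMSO, of each of the 10 genes under the main setting (diamonds), with centring on spike-in RNA (triangles) and under the other settings (grey points, which have no value for Herpud1 without damaged areas). The triangles of Hspa5, Canx, Pdia3, Xbp1 and Herpud1 lie below 0, and no grey point does.

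The ATF4 branch, against which these genes were set, was described by a list of 50 targets and partners of ATF4, of which 46 were measured. Of these, 34 were higher and 12 lower with GW4064, 0 were 2-fold or more either way, and the median was 0.14, against 0.20 for the 10 ER genes and 0.0068 for all genes. The gap between the medians, -0.064, is within the spread of either list, and it lay between -0.058 and -0.11 under all the settings. Median centring and spike-in centring could not change it, since they shift all genes by 1 constant. Of the ATF4 list 32.6% were above the median of the 10 ER genes, and of all genes 17.1%. Atf4 itself, with 2 probes at 0.13 and 0.19, had a mean of 0.16. The classic stress targets of this branch ranged from about 0 to 0.46. Ddit3 (CHOP), a transcription factor linked to cell death in lasting ER stress, had signals of 1543 and 1610 and a difference of -0.0041. Trib3, a pseudokinase that restrains ATF4, had 0.057. Asns, which makes asparagine, had signals of 6322 and 7951 and a difference of 0.27. Chac1, which degrades glutathione, went from a signal of 266 to 381, a difference of 0.46. The largest values of the list were those of the basic leucine zipper factor Jdp2 (0.54), the tryptophan tRNA synthetase Wars (0.51, from 2 probes at 0.54 and 0.49) and Chac1. The lowest were those of the lipoprotein receptor Vldlr (-0.77, read at signals of 41.2 and 25.3), and of Slc3a2 (-0.36) and Slc7a11 (-0.32), which together form the cystine transporter. Centred on the spike-in RNA, 16 genes of the ATF4 list were higher and 30 lower, with a median of -0.053. The share higher was 34.8%, against 18.2% of all genes on that scale.

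Among lists of other ER genes, the XBP1 branch and the entry of proteins into the ER had medians closest to that of the 10 genes. Of 35 other targets of the XBP1 branch 34 were measured, 31 of them higher and 3 lower. Their median was 0.18, which was 0.17 above that of all genes on the main scale. Spike-in centring shifts all genes by 1 constant and so could not change that gap. It shares 12 genes with the list for translocation and N-glycosylation, 34.3% of the former and 41.4% of the latter, so these lists are not independent. The highest were Pdia5, a further disulfide isomerase, with signals of 444 and 728 and a difference of 0.65, Creld2, an ER stress protein, with 24961 and 36123 and a difference of 0.47, and Hyou1 (GRP170), the nucleotide exchange factor of BiP, with 264 and 380 and a difference of 0.46. Sdf2l1, a partner of BiP, had 0.46, the BiP cochaperones Dnajb11 and Dnajc3 had 0.23 and 0.18, and Edem1, which passes misfolded glycoproteins to degradation, had 0.17. The 3 lower genes were Kdelr3 (-0.81), Fkbp14 (-0.43) and Sec24d (-0.063).

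Of 29 genes of translocation and N-glycosylation, all measured, 25 were higher and 4 lower, with a median of 0.16. Sec61a1, the channel through which new chains enter the ER, had signals of 26471 and 36013, a difference of 0.38. Ddost, a subunit of the oligosaccharyltransferase, had 0.37, and Ssr4, a subunit of the complex next to the channel, had 0.35. Dad1, another subunit of that transferase, was the only gene of this list at 2-fold or more, and its probes disagreed. The probe with signals of 19110 and 21098 had a difference of 0.077. The second probe did not stand well above background on the DMSO array, where its signal was 14.6, and was at least 6.84-fold higher with GW4064. The lowest were Tusc3 (-0.12), Sec62 (-0.084) and Sec11a (-0.060). With spike-in centring 12 genes of this list were higher and 17 lower, and of the XBP1 list 15 higher and 19 lower. The shares higher were 41.4% and 44.1%, against 18.2% of all genes on that scale.

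The remaining ER lists stood nearer to the median of all genes. Among 26 other ER chaperones and cochaperones, 24 were measured, 13 higher and 11 lower, with a median of 0.062. Manf, a secreted ER stress protein, had the highest value (0.51, with 6 spots that differed 8-fold or more within 300 µm), followed by Creld2 and Hyou1. The lowest were Fkbp10, a prolyl isomerase that acts on collagen, which went from a signal of 1280 to 619, a difference of -1.11, Mzb1, a chaperone of B and plasma cells, with -0.78, and Serpinh1 (HSP47), the collagen chaperone, with -0.73. These 3 lowest values stand beside lower stromal and plasma cell markers, given further on, and a link between them was not tested. Of 20 other disulfide isomerases and oxidases 19 were measured, 13 higher and 6 lower, with a median of 0.070. P4hb, the founding disulfide isomerase, had signals of 15702 and 19334 and a difference of 0.23, Tmx1 had 0.23, and Qsox1 was lowest at -0.38, followed by Prdx4 (-0.18) and Erp27 (-0.14). Of 29 genes of ER-associated degradation 28 were measured, 15 higher and 13 lower, with a median of 0.012. The highest were Derl3 (0.70, from signals of 137 and 234), Selenos (0.25) and the ubiquitin ligase Syvn1 (0.19), and the lowest were Marchf6 (-0.40), Sel1l (-0.12) and Rnf139 (-0.096). Of 20 sensors and proximal regulators, all measured, 14 were higher and 6 lower, with a median of 0.059. The sensors themselves were Ern1 (IRE1) with signals of 435 and 511 and a difference of 0.17, Eif2ak3 (PERK) with 0.027 and Atf6 with -0.21. Wfs1 had 0.27 and Creb3l1 0.27, and Nck1 had -0.19. The probes for Traf2 (1.34 and -0.055) and for Dab2ip (-1.35 and -0.26) disagreed, the larger value of each coming from the dimmer probe. With spike-in centring 7 of these other chaperones, 5 isomerases and oxidases, 3 genes of degradation and 4 sensors and regulators were higher, and all others were lower. On that scale 18.2% of all genes were higher. The share was 29.2% for the other chaperones, 26.3% for the isomerases and oxidases and 20% for the sensors and regulators. For degradation it was 3 of 28, below the share of all genes.

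**Figure D4:**
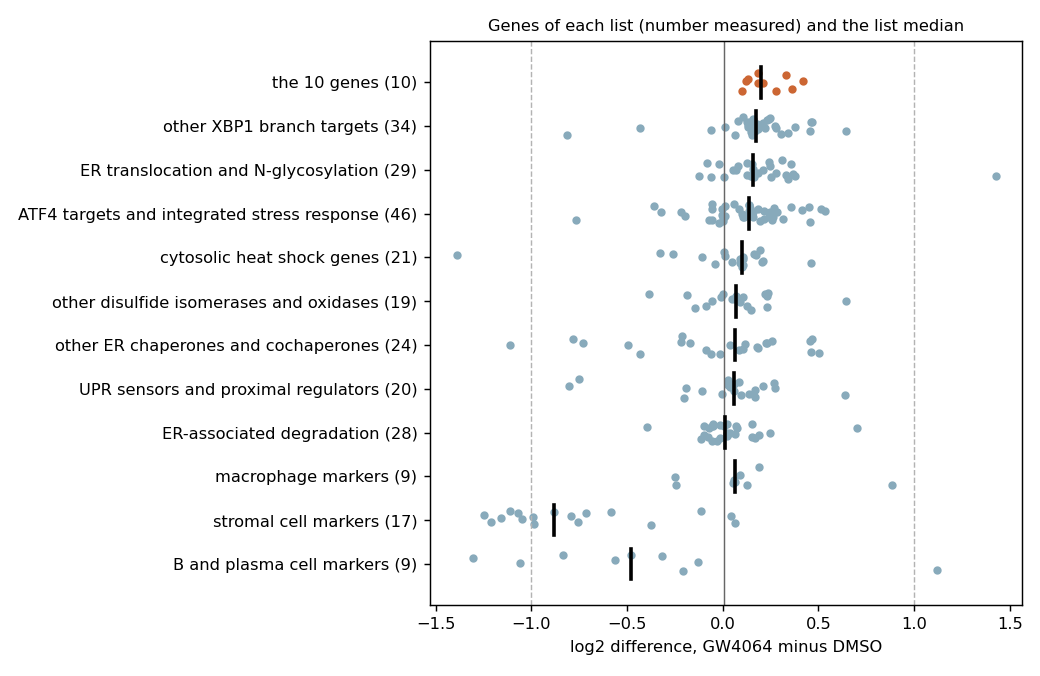
Log2 difference, GW4064 minus DMSO, of each measured gene of the lists (points, number measured in brackets), with the median of the list as a black bar, the median of all genes as a solid line and 2-fold as dashed lines. The medians run from 0.20 for the 10 genes through 0.18 for other XBP1 branch targets and 0.14 for ATF4 targets to -0.88 for stromal cell markers.

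The cells carried macrophage markers on both arrays. Of 12 such markers 9 were measured, 7 of them higher and 2 lower with GW4064. With spike-in centring 2 were higher and 7 lower, on a scale where 18.2% of all genes were higher. Marco (0.89), Msr1 (0.19) and Cd14 (0.13) were highest, and Adgre1 (F4/80, -0.25), Csf1r (-0.24) and Fcgr1 (0.055) were lowest. The median of the 9 was 0.062, and the summed signal of the 17 probes for these markers was 349663 with DMSO and 337045 with GW4064. Cd163 and Timd4 were not well above background, and Cd68 had no matched probe. Markers of other cell types were also read, and most were lower with GW4064. Of 18 stromal markers 17 were measured, 2 higher and 15 lower with GW4064, 6 of them 2-fold or more lower, with a median of -0.88. The summed signal of their 21 probes was 71482 with DMSO and 52723 with GW4064. Col6a1 (-1.25), Col5a1 (-1.21) and Fstl1 (-1.16) were lowest, followed by Postn (-1.11), Fbn1 (-1.07) and Acta2 (-1.05), and Pdgfra (0.065) and Fn1 (0.041) were above 0 (-0.12 and -0.15 with spike-in centring). Of 12 B and plasma cell markers 9 were measured, 8 lower and 1 higher, with a median of -0.48 and summed signals of 7506 and 8669 over 13 probes, and Cd79a and Pax5 were not well above background. Jchain had signals of 1129 with DMSO and 567 with GW4064, a difference of -1.06, Ms4a1 was not well above background with GW4064 and at least 2.47-fold lower, and Pou2af1 (-0.84) and Prdm1 (-0.56) followed. Sdc1, which macrophages also express, was the gene that was higher, at 1.12. In such a mixed culture fewer cells of a type and less RNA per cell cannot be told apart, and the part of these cells in the values of the ER genes was not tested.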

How the data were processed

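Total RNA of 2 cultures of BMDMs, 1 per condition, was labelled with 1 colour and hybridised to Agilent mouse arrays on 1 slide, read in 1 scan. The free-text description of the GW4064 sample repeats the wording for DMSO, and its title and treatment label gave the group. The deposited intensity of each spot is the processed signal that the authors obtained with Agilent Feature Extraction 10.7.1.1, with background subtracted. The authors also deposited a table of log2 values, whose difference between the arrays equalled the one computed here within 2.78e-06 apart from a constant of 0.0022 over 39200 probes. The baseline on which that table is centred (medians 0.035 with DMSO and -0.051 with GW4064) is unknown.

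Spots marked as non-uniform or as outliers were left out, log2 signals were set relative to the 75th percentile of each array, and spots of a probe were averaged. Of the probes, 57.4% with DMSO and 58.5% with GW4064 were well above background. Where 1 array did not read a probe well above background, its value there was a bound, from the higher of its own signal and the lowest signal well above background there. Of 39429 probes, 26439 were named through RefSeq transcripts of mouse assembly GRCm38.p6, and a gene took the mean of its probes. Since each condition had 1 array, nothing was tested, and precision is limited by the number of arrays. The copies of a probe used for the reading error were at least 5, each well above background.

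The members and lists were chosen with earlier results of these data known. Named were each member, the 3 highest and 3 lowest genes of a list among those measured on both arrays, genes at 2-fold or more, and a fixed set of stress response genes. Alternatives were quantile normalization, median centring, loess (span 0.3), spike-in centring, the deposited log2 table, normexp (limma 3.58.1, offset 50), marked spots kept, other filters on dim probes, the brightest probe, and leaving out areas where 2 or more other spots within 300 µm differed 8-fold. Subtracting the median of spots within 1000 µm was added after the data were seen. Motifs in promoters and features of proteins were planned but not analysed here, since no sequences were used. The calculation was tested on simulated data. Python 3.11.15 with numpy 2.4.6 and pandas 2.3.3, and R 4.3.3, were used.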

Additional observations from a re-analysis of the deposited data

How the results depend on the processing

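No paired analysis was possible because DMSO and GW4064 had 1 array each, and no replicate could be left out. With centring on the spike-in RNA the median of the 10 genes was 0.011 in place of 0.20, and the ATF4 median was -0.053 in place of 0.14. Of the 10 genes 5 were above 0 in place of 10, and of all genes 18.2% in place of 51.6%. The 5 genes that then lay below 0 were Hspa5 (-0.0058), Canx (-0.088), Pdia3 (-0.054), Xbp1 (-0.064) and Herpud1 (-0.0018). The shift follows from the construction of that scale, since the spike-in probes had a median difference of 0.19. In all, 119 values of single members were computed under the 12 other settings. Of these, 101 moved by less than the SD of 0.077 between copies of a probe, 16 moved down by more and 2 moved up by more, and 10 of the 16 came from spike-in centring. The 101 include values with no room to move. Keeping marked spots and the other filters on dim probes left all 10 genes unchanged, as none of their spots was marked or dim. The deposited table and median centring shifted them by constants of only 0.0022 and 0.012. Without the areas called damaged by the count of 8-fold spots, which hold 16.5% of the spots, 9 genes could be measured. All were above 0, and Pdia6 rested on its dimmer probe at 0.47. Subtraction of the local median, chosen after seeing the data, lowered Pdia4 to 0.33. The numbers at 2-fold or more were 0 under each setting run. All probes of the 10 genes were well above background, so it was the single array per condition, not the brightness, that limited them.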

Other observations

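The heat shock proteins of the cytosol and mitochondria are the counterparts of the ER chaperones and answer to HSF1 rather than to the ER sensors. Of 23 such genes 21 were measured, 16 higher and 5 lower with GW4064, with a median difference of 0.10. The highest was Hspe1 (HSP10 of the mitochondrion) at 0.46, from 3 probes at 0.90, 0.21 and 0.27, followed by the cochaperone Fkbp4 (0.21) and the mitochondrial Hspd1 (0.20). The lowest was the small heat shock protein Hspb1, which had signals of 830 with DMSO and 332 with GW4064, a difference of -1.39, followed by Dnajb4 (-0.33) and Bag3 (-0.26). With spike-in centring 4 genes of this list were higher and 17 lower, that is 19.0% higher against 18.2% of all genes.

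Markers of the M2 state gave values on both sides of 0. Their median of 0.14 was below that of the 10 ER genes (0.20), and 3 of them were 1.5-fold or more higher with GW4064. All 8 were measured, 5 higher and 3 lower with GW4064. With spike-in centring 4 were higher and 4 lower, on a scale where 18.2% of all genes were higher. Arg1, the arginase typical of these cells, had a difference of 3.82, Retnla 0.91 and Clec10a 0.84, while the PD-1 ligand Pdcd1lg2 had -0.41, the mannose receptor Mrc1 -0.34 and Cd209d -0.026.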
